A study of Mus musculus with 2 samples.

Results

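Mitochondrial ribosomal protein genes were taken as all features whose symbol is Mrpl or Mrps followed by a number and at most 1 letter. The rule found 78 of the 32285 listed genes, 49 named for the large subunit (Mrpl) and 29 for the small subunit (Mrps). Their transcripts were measured cell by cell in E14 mouse embryonic stem cells of 129/Ola background, kept in serum with leukaemia inhibitory factor. One library came from cells given a control small interfering RNA (siRNA) and is called control. The other came from cells given siRNA against Son, which encodes an RNA-binding splicing protein of nuclear speckles, and is called sonKD. Both cultures received the siRNA with Lipofectamine2000 in medium without antibiotics, and both were harvested 24 hours later, frozen and thawed. Healthy cells were sorted after staining with 7-AAD, a dye that enters dead cells, for 10x Genomics 3' barcoding. The model is 1 cell line, and Son RNA was reduced but still present in the sonKD library. With 1 library in each group no test was made, and what the knockdown did cannot be told apart from other differences between the libraries.

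The mitochondrial ribosome translates the few mRNAs that the mitochondrial genome encodes, all of which are for membrane subunits of the respiratory chain and the ATP synthase. Its ribosomal RNAs come from mitochondrial DNA, but every one of its proteins is encoded in the nucleus, made in the cytosol and imported. Some of these proteins descend from bacterial ribosomal proteins, and others were added in the mitochondrial lineage. The products must be matched to one another and to ribosomal RNA made in another compartment, and unassembled subunits are degraded.

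Cells were barcodes with at least 2500 unique molecular identifiers (UMIs, each marking 1 captured molecule), at least 1000 genes and at most 10% of UMIs from mitochondrial genes. These were 4978 control barcodes with a median of 7738 UMIs and 2731 sonKD barcodes with a median of 11612, together holding 40902904 and 32032551 UMIs. The libraries shared 2 of these barcodes. Stem cell markers Pou5f1, Sox2, Nanog, Zfp42, Esrrb, Klf4, Dppa5a, Tdgf1 and Utf1 summed to 8595 CPM in control and 9353 in sonKD, CPM being a gene's share of all UMIs in cells on the usual scale, on which 9867 CPM is 0.987%. Of the 9 markers 7 were lower in sonKD, with a median log2 ratio of -0.07, and the higher sum came with Dppa5a, at 5027 and 6075 CPM, while Pou5f1 was at 1104 and 916 CPM. The summed 5 markers each of trophectoderm, primitive endoderm and fibroblasts ranged from 3.15 to 11.6 CPM, with Elf5, Col3a1 and Postn at 0 UMIs in both libraries. Son had 6894 control UMIs (169 CPM) and 3386 sonKD UMIs (106 CPM), a log2 ratio of -0.67 (95% interval -0.73 to -0.61). Of 5603 control and 3787 sonKD barcodes past the UMI and gene minimums, 11.2% and 27.9% had more than 10% mitochondrial UMIs and were left out.

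As a class, mitochondrial ribosomal protein transcripts held nearly the same share of UMIs in both libraries, while single genes differed by up to 1.62-fold. The 78 genes summed to 403582 UMIs in control, or 9867 CPM (9836 to 9897), and to 314827 in sonKD, or 9828 CPM (9794 to 9863). The log2 ratio of the sums, sonKD over control, was -0.0056, with a counting interval of -0.012 to 0.0011 that included 0. Here and throughout, intervals are exact, at 95%, and cover counting error only. Since CPM is a share of the library, the scaling matters: with TMM factors the ratio of the sums was 0.084, and with mitochondrial and cytosolic ribosomal protein genes left out of the total it was 0.067.

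The sums of the subunits lay close to their control values in both cases. Large subunit genes summed to 6516 CPM (6492 to 6541) in control against 6484 CPM (6456 to 6512) in sonKD, a log2 ratio of -0.0072 (-0.016 to 0.0011). Small subunit genes summed to 3350 CPM (3333 to 3368) and 3344 CPM (3324 to 3364), a ratio of -0.0026 (-0.014 to 0.0090). The symbols of 3 genes do not match the place of their protein: Mrps18a and Mrps30 encode proteins that sit in the large subunit, and the Mrps36 product is a component of the 2-oxoglutarate dehydrogenase complex. With the first 2 genes counted as large and Mrps36 left out, the ratios were -0.0098 for the large and -0.0029 for the small subunit. Split by origin, the 18 small subunit genes with bacterial homologs summed to 2385 CPM in control against 2443 in sonKD. The 11 mitochondria-specific ones summed to 965 and 902 CPM, a log2 ratio of -0.10 (-0.12 to -0.08). Single genes weighed on both sums. Mrps26, of the 11, was at 134 and 98.7 CPM. Mrps16 and Mrps21, of the 18, were at 194 and 254 CPM and at 100.04 and 144 CPM. Gene by gene, most of either set were lower in sonKD: 11 of the 18, with a median of -0.02, and 7 of the 11, with a median of -0.08. Most genes at large were lower too, 6039 of the 8063 that averaged at least 10 CPM. Without Mrps30 and Mrps36 the other 9 mitochondria-specific genes summed to 813 and 740 CPM, a ratio of -0.14 (-0.16 to -0.11), with a median of -0.08. The median over all genes was -0.12. With TMM factors the ratios of the sums were -0.0080 for the 11 genes and -0.05 for the 9, against 0.12 for the 18. The 18 were taken by symbol and still include Mrps18a. In the large subunit, the 30 genes with bacterial homologs were at 4436 and 4384 CPM and the 19 mitochondria-specific ones at 2080 and 2100 CPM. Of these, 17 of the 30 and 13 of the 19 were lower in sonKD, with medians of -0.02 and -0.04, beside the 6039 of 8063 genes at large.

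**Figure D1:**
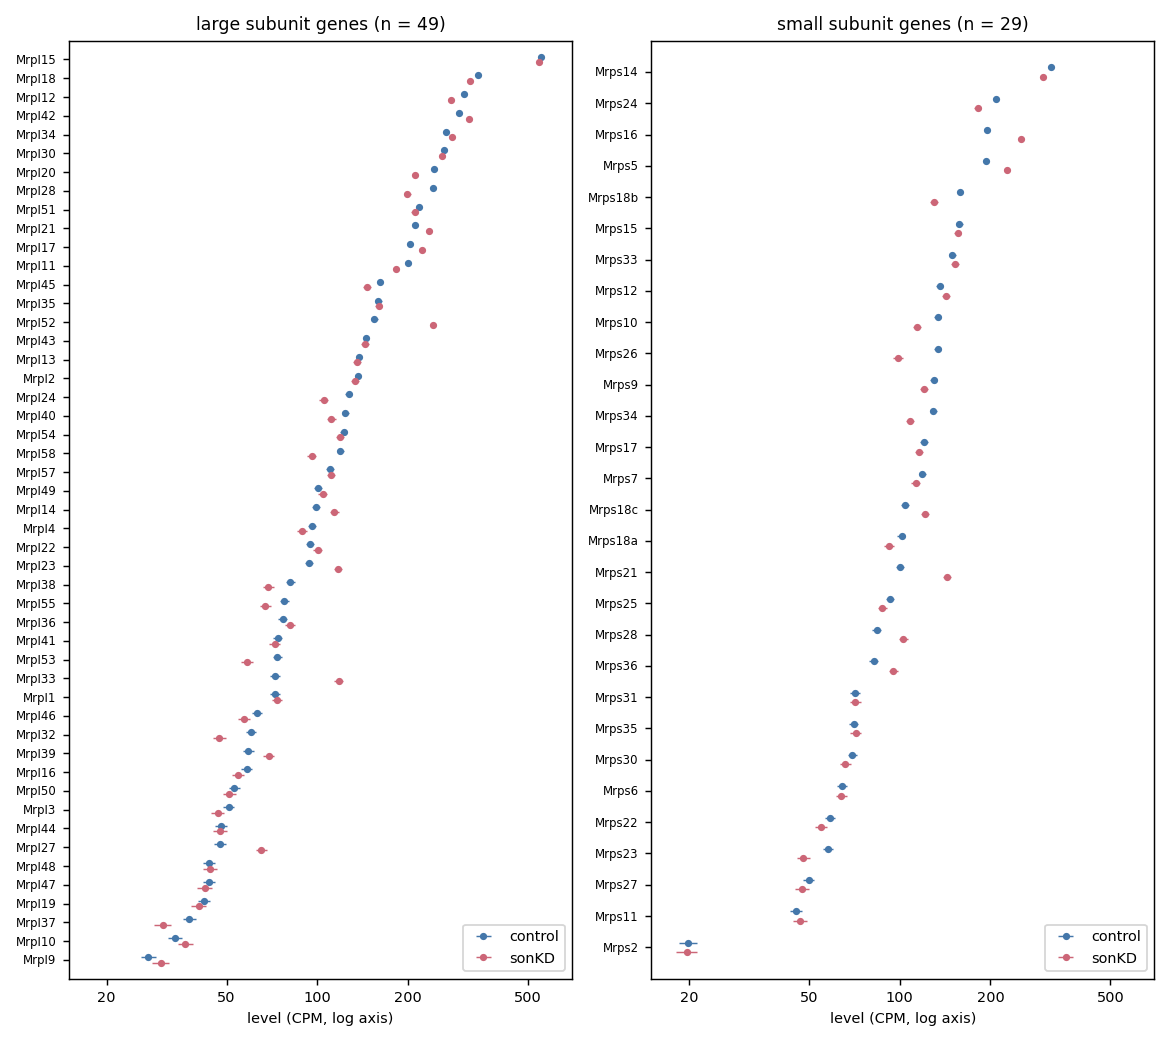
Level of each gene in control and sonKD, in CPM on a log axis, with exact 95% Poisson intervals, for 49 large and 29 small subunit genes ordered by their control level. Mrpl15 is the highest gene and Mrps2 the lowest in both libraries, and Mrpl33, Mrpl52 and Mrps21 stand out with higher sonKD values.

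Levels spanned a wide range in either library. The assay tags 1 3' end per molecule, so CPM counts molecules and was not divided by length. Averaged over both libraries, all 78 genes reached 10 CPM, the minimum used for every count of genes, and none lay near it: the lowest were Mrps2 at a mean of 19.8 CPM, Mrpl9 at 28.9 and Mrpl37 at 34.1. The median gene was at 101 CPM in control against 107 in sonKD, and 41 and 43 genes had at least 100 CPM. In the order of control levels, 61 of 77 neighbouring pairs had overlapping intervals, and in sonKD 62 of 77 did, so close ranks are not separated. Pearson's r of log2 levels between the libraries, with a pseudocount of 1 CPM, was 0.974 across the 78 genes, which are not independent replicates, and 7 of the 10 highest genes were shared.

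Mrpl15, a large subunit protein with a bacterial homolog, was the highest by a wide margin, at 22517 UMIs or 550.5 CPM (543 to 558) in control against 17397 UMIs or 543 CPM (535 to 551) in sonKD. Its intervals overlapped, and the log2 ratio was -0.02 (-0.05 to 0.01). Mrpl18, of the central protuberance, followed at 342 CPM (336 to 348) and 320 CPM (314 to 326). Mrpl12, which forms the flexible stalk that recruits translation factors, had 307 CPM (301 to 312) and 277 CPM (271 to 283), a log2 ratio of -0.15. The stalk genes were far apart in level. Mrpl10, whose product anchors the Mrpl12 protein, was among the lowest genes at 33.8 CPM (32.0 to 35.6) and 36.5 CPM (34.4 to 38.6), and Mrpl11, at the stalk base, had 200.3 and 182 CPM. Mrpl9 closed the large subunit at 27.5 CPM (25.9 to 29.2) and 30.2 CPM (28.3 to 32.2), a log2 ratio of 0.14 that was 0.32 in thinned cells.

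In the small subunit Mrps14 was highest, at 317 CPM (311 to 322) in control against 299 CPM (293 to 305) in sonKD. Mrps24 had 208 CPM (204 to 213) and 181 CPM (177 to 186), a log2 ratio of -0.20. Mrps11 was at 45.2 CPM (43.2 to 47.3) and 46.8 CPM (44.4 to 49.2), with overlapping intervals. Mrps2 was the lowest gene of all, at 815 UMIs or 19.9 CPM (18.6 to 21.3) and 629 UMIs or 19.6 CPM (18.1 to 21.2). Mrps12, a protein of the decoding centre, had 136 CPM (132 to 139) and 143 CPM (138 to 147). The sign of its log2 ratio, 0.07 (0.01 to 0.13), was kept under all 8 settings of scaling, centring, cell filter and thinning, as were the signs of 45 of the 78 genes. The other 33 changed sign under at least 1 of the 8, and the largest of their ratios lay 0.11 from 0. TMM factors alone move every ratio up by 0.09.

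Gene by gene, 30 ratios were above 0 and 48 below. Of all 8063 genes that averaged at least 10 CPM, 2024 were above 0 and 6039 below. With TMM factors the split of the 78 was 51 and 27, so the sign of a small ratio carries little. The median log2 ratio was -0.03, with quartiles at -0.14 and 0.07, and TMM factors moved it above 0, to 0.056. Over all 8063 genes that reached 10 CPM on average the median was -0.12 and the central range, from the 5th to the 95th percentile, ran from -0.40 to 0.25, against -0.30 to 0.40 for the 78 genes. Of the 78, 56 had a ratio above the median of all genes. The large subunit median was -0.03 over 49 genes and the small subunit median -0.06 over 29.

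**Figure D2:**
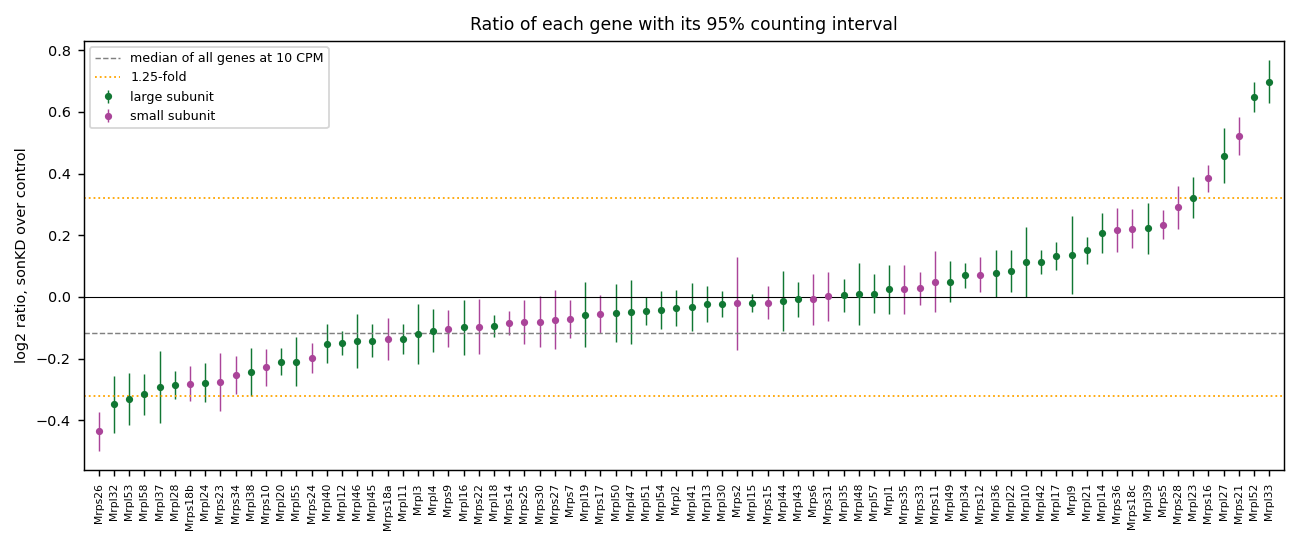
Log2 ratio of sonKD over control for each of the 78 genes in order, with exact 95% counting intervals. Dotted lines mark sonKD levels 25% above and 20% below control, with 6 genes past the upper and 3 past the lower line, and the dashed line is the median of all genes, -0.12.

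A size limit was used in place of a test: a sonKD level at least 25% above control, or at least 20% below it, which is the same distance on the log scale. Of the 78 genes, 6 or 7.69% were past the upper limit, where 3.5% of all genes were. Past the lower limit were 3 genes or 3.85%, where 10.2% of all genes were. The split moved with the scaling: it was 8 higher and 1 lower with TMM factors, beside 5.57% and 4.6% of all genes, and 12 higher and 0 lower when ratios were centred on the median of all genes, beside 6.46% and 3.82%. The 6 higher genes were Mrpl33, Mrpl52, Mrps21, Mrpl27, Mrps16 and Mrpl23, and the 3 lower genes were Mrps26, Mrpl32 and Mrpl53. Mrpl33, Mrpl52, Mrps21 and Mrpl27 stayed past the limit under all 8 settings of scaling, centring, cell filter and thinning. Mrps26 and Mrps16 did so under 7 of 8, Mrpl23 under 5, and Mrpl32 and Mrpl53 under 4.

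Mrpl33 (ENSMUSG00000106918, GRCm38 chromosome 5, 31596935 to 31664384, forward strand) encodes a small large-subunit protein with a bacterial homolog. It had 2963 UMIs or 72.4 CPM (69.9 to 75.1) in control against 3764 UMIs or 118 CPM (114 to 121) in sonKD. The intervals lay apart, and sonKD was at 1.62-fold of control, a log2 ratio of 0.70 (0.63 to 0.77). In cells thinned at random to 2500 UMIs, 16.6% of the control cells (15.5 to 17.6) had a Mrpl33 UMI, against 25.7% in sonKD (24.0 to 27.4). The unthinned shares were 43.6% and 71.2%. Free RNA in droplets of 100 to 500 UMIs held the gene at 111 CPM in control against 180 in sonKD, so it differed there too. Such RNA gives UMIs in any droplet, and no cell type that lacks these genes was at hand as a background.

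Mrpl52 (ENSMUSG00000010406, chromosome 14, 54426909 to 54429756, forward strand), a mitochondria-specific protein of the large subunit, had 6326 UMIs or 155 CPM (151 to 159) in control against 7764 UMIs or 242 CPM (237 to 248) in sonKD. It was 1.57-fold higher in sonKD, a log2 ratio of 0.65 (0.60 to 0.70), and moved from rank 21 to rank 9 among the 78. Its share of thinned cells was 32.7% in control (31.4 to 34.0) and 43.9% in sonKD (42.1 to 45.8), against 68.8% and 89.2% without thinning. No 31-base word of the 3' end of its representative transcript occurs in an annotated transcript of another gene. Inexact matches and unannotated copies in the genome were not searched, so shared reads are not excluded.

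Mrps21 (ENSMUSG00000054312, chromosome 3, 95862634 to 95871519, reverse strand), a small subunit protein with a bacterial homolog, had 100.04 CPM (97.0 to 103) in control against 144 CPM (139 to 148) in sonKD. Its log2 ratio was 0.52 (0.46 to 0.58). Mrpl27 (chromosome 11, 94653767 to 94660089), whose bacterial homolog reaches toward the peptidyl transferase centre, had 47.4 CPM (45.3 to 49.6) and 65.2 CPM (62.4 to 68.0), a ratio of 0.46 (0.37 to 0.55). For these genes and Mrpl33, 27.6% (Mrps21), 34.6% (Mrpl27) and 28.1% (Mrpl33) of the words in the last 400 bases of the transcript occur in another annotated gene. Mrps16 (chromosome 14, 20389304 to 20393634), a small subunit protein whose loss causes a respiratory chain deficiency, shares none. It had 194 CPM (190 to 199) and 254 CPM (248 to 259), a ratio of 0.38 (0.34 to 0.43). Mrpl23, a protein at the exit of the nascent chain tunnel, was just past the limit at 0.32 (0.26 to 0.39), from 93.7 to 117 CPM. Of the words of its 3' end 99.5% occur in other annotated genes, the largest share in the pseudogene Mrpl23-ps1, so the Mrpl23 value is uncertain. Just short of the limit lay Mrps28 at 0.29, from 83.9 to 103 CPM.

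Mrps26 (ENSMUSG00000037740, chromosome 2, 130563742 to 130568695, forward strand), a mitochondria-specific small subunit protein, had the lowest ratio. It had 5463 UMIs or 134 CPM (130 to 137) in control against 3162 UMIs or 98.7 CPM (95.3 to 102) in sonKD, a log2 ratio of -0.44 (-0.50 to -0.37). It was found in 27.1% of thinned control cells (25.9 to 28.4) and 21.2% of thinned sonKD cells (19.7 to 22.8), and in 62.0% and 63.0% without thinning. Free RNA held it at 168 CPM in control against 106 in sonKD. Mrpl32 (chromosome 13, 14608184 to 14613165), whose product is trimmed by the m-AAA protease before it enters the large subunit, had 60.2 CPM (57.9 to 62.7) and 47.3 CPM (45.0 to 49.8), a ratio of -0.35 (-0.44 to -0.26). Mrpl53 was at 73.6 and 58.5 CPM, a ratio of -0.33 (-0.42 to -0.25). All words of its 3' end occur in other annotated genes, the largest share in the overlapping gene Gm42688 on the same strand, so the Mrpl53 value is uncertain. Short of the lower limit by a little was Mrpl58, the peptidyl-tRNA hydrolase that rescues stalled ribosomes, at 119 CPM (116 to 123) and 95.7 CPM (92.4 to 99.2), a ratio of -0.32 (-0.38 to -0.25). Mrpl37 followed at 37.6 and 30.7 CPM, a ratio of -0.29 (-0.41 to -0.17). In thinned cells, a random draw of fewer UMIs, the ratios were nearer 0 for Mrpl37, at -0.11, and Mrpl32, at -0.22. As a mean of CPM per cell, which weighs every cell alike, they were -0.28 for Mrpl37 and -0.35 for Mrpl32.

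The Mrps18 paralogs, 3 genes descended from 1 bacterial protein, differed in direction under CPM. Mrps18c, the member at the bacterial position, had 104 CPM (101 to 107) in control against 121 CPM (117 to 125) in sonKD, a log2 ratio of 0.22 (0.16 to 0.28). Mrps18b had 158 CPM (154 to 162) and 130 CPM (126 to 134), a ratio of -0.28 (-0.34 to -0.23). Mrps18a, of the large subunit, had 101 CPM (98.4 to 105) and 92.2 CPM (88.9 to 95.6), a ratio of -0.14 (-0.21 to -0.07). The order Mrps18b, Mrps18c, Mrps18a held in both libraries, with Mrps18c and Mrps18a intervals that overlapped in control and lay apart in sonKD. Of the other genes whose symbol does not match their place, Mrps30 had 69.7 and 66.0 CPM, a ratio of -0.08 (-0.16 to 0.0017), and Mrps36 had 82.1 and 95.4 CPM, a ratio of 0.22 (0.14 to 0.29).

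The upstream sequence is shown for both genes with the highest ratios, for the gene with the lowest, and for Mrps14 as the most abundant small subunit gene. Sequences come from RefSeq on GRCm38.p6, where 69 of the 78 genes matched an entry, and only the longest stretch before the start that holds no annotated exon is printed. The windows are chr5:31613701-31613938 (Mrpl33), chr14:54426659-54426908 (Mrpl52), chr2:130563507-130563653 (Mrps26) and chr1:160194965-160195214 (Mrps14), all on the forward strand, and capitals mark a match to GGGCGG, the GC box bound by SP1.
Mrpl33: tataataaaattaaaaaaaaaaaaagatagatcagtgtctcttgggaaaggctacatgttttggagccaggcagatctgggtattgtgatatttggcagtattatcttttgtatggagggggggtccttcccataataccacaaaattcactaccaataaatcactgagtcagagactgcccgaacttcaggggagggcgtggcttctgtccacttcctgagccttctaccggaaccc
Mrpl52: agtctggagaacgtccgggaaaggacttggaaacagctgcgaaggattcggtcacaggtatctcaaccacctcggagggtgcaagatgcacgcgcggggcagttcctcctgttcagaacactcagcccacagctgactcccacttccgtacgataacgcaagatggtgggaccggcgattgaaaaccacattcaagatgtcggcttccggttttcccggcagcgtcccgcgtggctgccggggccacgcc
Mrps26: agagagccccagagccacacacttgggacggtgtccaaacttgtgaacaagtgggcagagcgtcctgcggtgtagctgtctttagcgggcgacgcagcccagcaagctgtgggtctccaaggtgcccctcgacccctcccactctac
Mrps14: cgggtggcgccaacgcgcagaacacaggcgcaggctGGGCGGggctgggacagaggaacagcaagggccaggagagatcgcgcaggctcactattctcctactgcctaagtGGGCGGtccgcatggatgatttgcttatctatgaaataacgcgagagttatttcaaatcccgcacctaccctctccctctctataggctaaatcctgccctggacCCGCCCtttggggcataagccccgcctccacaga
The Mrpl33 window lies inside the GENCODE span of the gene, before the RefSeq start. The printed Mrps14 stretch, of 250 bases, held 3 GC boxes. The printed stretches of Mrpl33 (238 bases), Mrpl52 (250) and Mrps26 (147) held none of the 6 motifs searched. They differ in length, and that of Mrps26 ends at 130563653, short of the GENCODE start at 130563742, so these counts are not compared.

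Across the 69 genes, 300-base windows from 250 bases before to 50 after the start were searched on both strands. The core CGCATGCG of the NRF1 motif, a factor known from nuclear genes for mitochondrial proteins, was in 7 genes or 10.1%, where 4.84% of 6471 genes at 10 CPM and 1.91% of all 27025 windows held it. The ETS motif CCGGAAGT, bound by GABPA, was in 11 genes or 15.9% (10.7% and 4.0%). The YY1 motif AAGATGGCG was in 8 genes or 11.6% (4.28% and 1.49%). The GC box GGGCGG was in 49.3% (68.6% and 35.9%), the E-box CACGTG in 7.25% (11.5% and 7.24%) and the TATAAA box in 5.8% (6.29% and 14.2%). The searched motifs can overlap, and a match is a description of the letters.

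The genes lie on 17 chromosomes, with 11 on chromosome 11 and 8 on chromosome 17. A start of a protein-coding gene on the opposite strand lies within 1000 bases upstream or 300 downstream of 23 of the 78 starts, or 29.5%, where 15.7% of 7883 protein-coding genes at 10 CPM had one. Mrpl46 and Mrps11, of different subunits, overlap at their starts on opposite strands of chromosome 7, by more than these limits allow for a pair, and had ratios of -0.14 (-0.23 to -0.06) and 0.05 (-0.05 to 0.15). In all, 36 genes overlap a gene on the other strand and 13 a gene on the same strand, 4 of them a protein-coding one. How reads in such overlaps were assigned is not given in the sources used here. At their 3' ends, 53 genes share no word with another gene, 22 share under 50% and 3 share more, Mrpl22 at 56.5% besides Mrpl23 and Mrpl53.

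**Figure D3:**
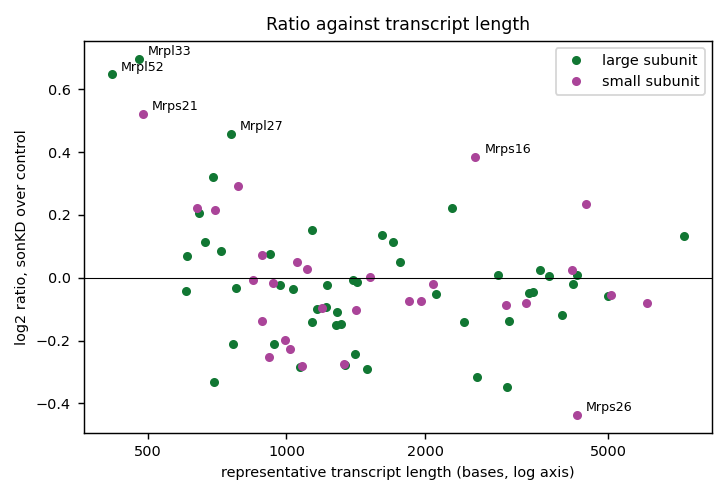
Log2 ratio of sonKD over control against the length of the representative transcript of each gene (log axis) for 49 large and 29 small subunit genes. The 3 shortest transcripts, of Mrpl52, Mrpl33 and Mrps21, have the 3 highest ratios.

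The representative transcripts had a median of 1302 bases, against 2940 for all genes at 10 CPM, and a median of 5 exons against 9. The 3 highest ratios belonged to the 3 shortest transcripts, at 418 bases (Mrpl52), 478 (Mrpl33) and 488 (Mrps21). Across the 78 genes Spearman's rho of the log2 ratio was -0.22 with transcript length, -0.11 with exon number, -0.12 with GC content and 0.33 with the median intron length. Over all genes these were -0.28, -0.29, -0.032 and 0.091. These are 4 relations across genes that share both libraries, given as descriptions. The choice of transcript bears on length, and with the median length of coding transcripts rho was -0.25 over the 78 and -0.23 over all genes.

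Other nuclear genes of mitochondrial translation were measured in the same cells. Of 5 mitochondrial ribosomal proteins with other symbols, 4 were lower and 1 was higher in sonKD, none past the limits. Aurkaip1 had 249.9 and 202 CPM, a log2 ratio of -0.31 (-0.35 to -0.26), and Chchd1 had 162 and 197 CPM, a ratio of 0.29 (0.24 to 0.34). Of 12 listed translation factor genes, 11 had 10 CPM and 0 were past the limits, with a median of -0.10. They ran from Tufm, the elongation factor that delivers tRNA, at 58.5 and 47.3 CPM (-0.31, -0.40 to -0.21), to the release factor homolog 2810006K23Rik at 31.3 and 36.6 CPM (0.22, 0.11 to 0.34). Of 25 genes of ribosome assembly and rRNA modification, 21 had 10 CPM and 0 were past the limits, with a median of -0.11. They ran from the rRNA methyltransferase Mettl15 at 18.2 and 14.6 CPM (-0.32, -0.49 to -0.15) to the large subunit assembly factor Malsu1 at 92.3 and 96.03 CPM (0.06, -0.01 to 0.13).

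Of 6 listed genes of mitochondrial transcription and mRNA stability, 5 had 10 CPM and 1 was past the upper limit: Slirp, which binds mitochondrial mRNAs with Lrpprc, at 92.8 CPM in control against 137 in sonKD, a ratio of 0.56 (0.50 to 0.62). Tefm, the mitochondrial transcription elongation factor, was the lowest of the 5 at -0.14 (-0.31 to 0.03). Its ratio was -0.41 in thinned cells, which hold fewer UMIs, and -0.16 as a mean of CPM per cell. Polrmt, the mitochondrial RNA polymerase, named after its values were seen, averaged under the minimum, at 10.6 CPM (9.66 to 11.7) and 7.77 CPM (6.84 to 8.80), a ratio of -0.45 (-0.68 to -0.22). The 13 mitochondrial mRNAs, the templates of this ribosome, had a median ratio of 0.13, and 5 were at least 25% higher in sonKD. They ran from mt-Nd6 at 28.7 and 24.8 CPM (-0.21, -0.35 to -0.08) to mt-Nd4l at 364 and 644 CPM (0.82, 0.79 to 0.86). Their share was limited to 10% of UMIs by the rule for cells.

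**Figure D4:**
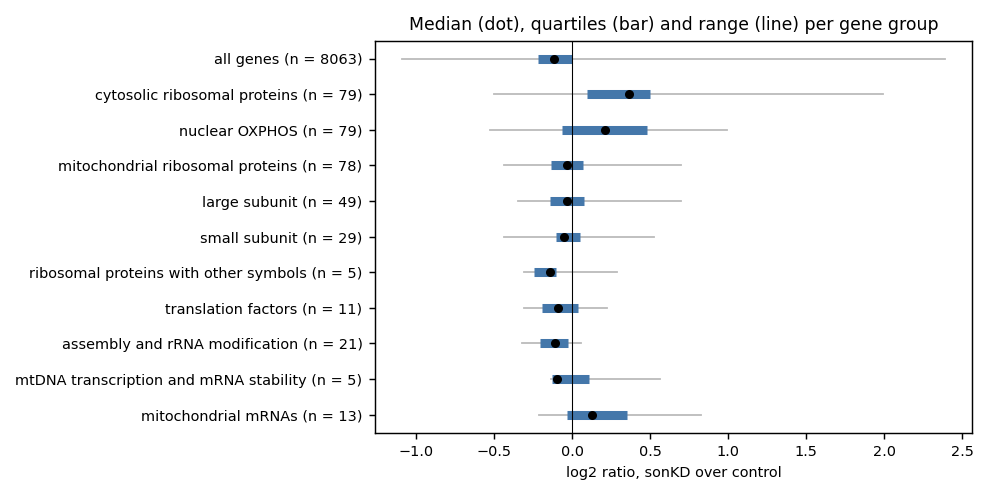
Median (dot), quartiles (bar) and range (line) of the log2 ratio of sonKD over control per gene group, over genes that reached 10 CPM on average. The mitochondrial ribosomal protein genes have a median of -0.03, the cytosolic ribosomal protein genes 0.36 and the nuclear oxidative phosphorylation genes 0.21, against -0.12 for all genes.

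Cytosolic ribosomal protein genes and nuclear oxidative phosphorylation genes showed another picture. Of 79 cytosolic ribosomal protein genes with 10 CPM, 44 were at least 25% higher in sonKD and 2 at least 20% lower, with a median of 0.36. Of 79 nuclear oxidative phosphorylation genes, 33 were past the upper and 2 past the lower limit, with a median of 0.21. Beside these stand the 6 higher and 3 lower of 78 mitochondrial ribosomal protein genes with a median of -0.03. Many cytosolic ribosomal protein genes have processed pseudogenes, so their counts depend on how shared reads were assigned, and the difference between the groups was not tested.

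Within cells, the sum of the 78 genes was compared at an equal depth of 2500 UMIs, which all kept cells reached. The median cell held 24 UMIs of these genes in control (quartiles 20 and 29) and 24 in sonKD (20 and 28). The median number of the 78 genes with a UMI was 20 in control and 19 in sonKD. Single genes were found in 4.7% (Mrps2) to 72.1% (Mrpl15) of thinned control cells, and in 4.28% to 74.1% of thinned sonKD cells. Their variance over thinned cells was close to the mean, with a median ratio of variance to mean of 1.01 in control and 1.02 in sonKD, against 1.03 for 5795 genes in the same range of levels in either library. None of the 78 exceeded the 95th percentile of those genes, 1.14. The sum was more variable than single genes, with a ratio of 1.77 in control and 1.55 in sonKD, and Pearson's r of large against small subunit sums over cells was 0.24 (n = 4978) and 0.17 (n = 2731). These values moved with the depth: at 4000 UMIs, without 268 control and 109 sonKD cells, r was 0.30 and 0.29 and the ratio of variance to mean of the sum was 2.03 and 2.00, so the gaps between the libraries at 2500 UMIs are no finding.

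**Figure D5:**
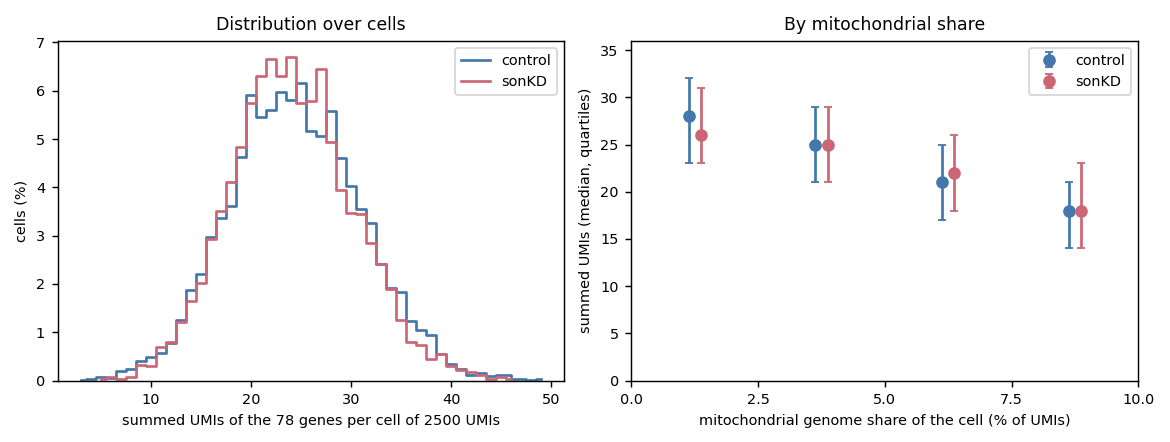
Left, distribution over cells of the summed UMIs of the 78 genes after thinning each cell to 2500 UMIs, in percent of cells of each library. Right, median and quartiles of this sum by the share of mitochondrial genome UMIs in the cell: the medians go from 28 to 18 in control and from 26 to 18 in sonKD.

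The sum was lower in cells with more RNA of the mitochondrial genome. In control, the median was 28 UMIs in 480 cells under 2.5% mitochondrial UMIs, 25 in 3544 cells from 2.5 to 5%, 21 in 753 cells from 5 to 7.5% and 18 in 201 cells from 7.5 to 10%. In sonKD the medians of the same classes were 26, 25, 22 and 18, in 129, 1877, 574 and 151 cells. Counted per 1000 UMIs that were not mitochondrial, the values in control were 11.4, 10.4, 8.89 and 7.64, and in sonKD 11.1, 10.3, 9.49 and 8.2, so the order was the same without them. Depth moved with it: the median depth before thinning was 8139 UMIs in the first control class and 3860 in the last, and 12355 and 4892 in sonKD, and its part was not tested. Cytosolic ribosomal protein UMIs per thinned cell went from 549 to 432 in control and from 617 to 523 in sonKD, so that per 1000 of those the 78 genes had 50.9 and 40.4 UMIs in control and 44.1 and 35.8 in sonKD.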

How the data were processed

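The deposited values are UMI counts by gene and barcode, not normalized, which the authors made with Cell Ranger 7.1.0, per the file headers, on mm10, per the submitters' processing notes. The gene annotation and the handling of intronic reads are not given in the sources used here. The files list all barcodes, and the cell rule was applied to them with no doublet caller; leaving out the 5% of barcodes with the most UMIs was tried as an alternative. Counts were summed over cells and divided by the library total to give CPM. Ratios are log2 of sonKD over control CPM without a pseudocount, for genes that averaged 10 CPM or more. Intervals at 95% are exact Poisson for levels, Clopper-Pearson for shares and conditional binomial for ratios, and UMIs lost or merged are not covered. Thinning drew UMIs without replacement. Gene models were those of GENCODE M21 on GRCm38, in which all 78 genes and 32235 of 32285 listed identifiers occur. Tools were Python 3.11.15, scipy 1.17.1 and edgeR 4.0.16 (TMM factors only). The ratio script was tested on simulated Poisson counts, which hold counting error only. The genes named are the 5 highest and the 5 lowest ratios, the 3 highest and 2 lowest control levels per subunit, Mrpl12, Mrps12, Mrps18a, Mrps18b, Mrps18c, Mrps30, Mrps36, Mrpl58, the extremes of each further list, and Son. Mrpl11, Mrpl22, Mrpl23, Mrpl46 and Mrps28 were added after their values were seen. Longer NRF1 and YY1 patterns were searched first; they gave other counts in the same order, highest in these genes and lowest over all windows. The members and lists were chosen with earlier results of these data known.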

Additional observations from a re-analysis of the deposited data

Results flagged for a closer look

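Barcodes past the UMI and gene minimums with more than 10% mitochondrial UMIs lie outside the comparisons above. Their summed level of the 78 genes drew attention because it was higher in sonKD, at 7212 CPM (7125 to 7300), than in control, at 6781 CPM (6667 to 6897). These values rest on 26275 and 13394 UMIs of the genes in 1056 and 625 barcodes. Both lie under the 9828 and 9867 CPM of the cells. The 13 mitochondrial mRNAs took 178715 CPM of such barcodes in sonKD and 150607 CPM in control, and their part in the difference was not tested. In the same barcodes Mrpl33 was at 154 CPM in sonKD and 88.1 CPM in control, and Mrps26 at 88.9 and 104 CPM. Free RNA in droplets of 100 to 500 UMIs went the other way. There the 78 genes summed to 12530 CPM (12479 to 12581) in sonKD and 13373 CPM (13320 to 13426) in control.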

How the results depend on the processing

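No paired analysis was possible because each group held 1 sample and replicate number 1 is a name alone. For the 7 results on sums, medians, counts and UMIs per cell, 49 values under alternatives stayed within the counting interval or within 1.5 times of a count, 14 moved and 3 reversed. For the sums, TMM factors gave 0.0844 for all 78 genes, 0.0829 for the large and 0.0875 for the small subunit, the total without mitochondrial and cytosolic ribosomal protein genes gave 0.0669, 0.0653 and 0.0699, and thinned cells gave -0.0184, -0.0194 and -0.0166. The first 2 of these settings divide by another total. The median ratio reversed to 0.0555 with TMM factors, to 0.0380 with the reduced total and to 0.0814 when centred on all genes, and moved to -0.0507 in thinned cells, where fewer UMIs entered. The count of genes at least 20% lower was 1 with TMM factors, 1 with the reduced total and 0 after centring, and the count at least 25% higher was 12 after centring. For single named genes, 229 values stayed inside the interval of the main ratio, 58 moved outside it and 1 did so from an interval that excluded 0 to the other sign. Of all these values, 8 had the other sign, in 5 genes. The interval of the main ratio included 0 for Mrpl15, Mrps2, Mrps11 and Mrps30 and excluded it for Mrps14, which went to 0.0046 with TMM factors. The setting without the 3 genes sharing at least 50% of their 3' end was chosen after seeing the data and left 5 higher and 2 lower of 75. Depth limits the low genes: the interval of the Mrps2 ratio ran from -0.17 to 0.13.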
